A study of Mus musculus with 8 samples.

Results

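The S100 genes described here are 10 members of the family of small calcium-binding proteins, S100g, S100a1, S100a4, S100a6, S100a8, S100a9, S100a10, S100a11, S100a14 and S100a16, out of 24346 gene symbols in the deposited tables. They were picked by name with the difference between Smad2/3 cKO and control uterine epithelium already known, so their fold changes in this comparison are given as a description and without p-values. The data are RNA-seq tables of 8 libraries of mouse uterine epithelium, 3 labelled control and 5 labelled Smad2/3 cKO, all on a mixed C57BL/6/129S6/SvEv background. The cKO mice carry floxed Smad2 (exons 9 and 10) and floxed Smad3 (exons 2 and 3) together with the Pgr-cre knock-in allele, which acts wherever the progesterone receptor gene is expressed, including ovary, oviduct, mammary gland and pituitary as well as uterus. For the controls no alleles are listed, and the age of the mice, the cycle stage and the way epithelium was isolated were not given in the sources used here. It is also not said whether libraries came from different animals. A p-value therefore measures only library-to-library spread, which can be technical.

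S100 proteins are small EF-hand proteins that mostly form dimers, bind calcium and then expose a surface that grips target proteins. S100G, also called calbindin-D9k, is the exception in acting as a monomeric calcium buffer, and it is known in intestine and uterus, where steroid hormones regulate it. S100A8 and S100A9 pair to form calprotectin, an antimicrobial, metal-binding complex abundant in neutrophils and in stressed epithelia. S100A10 and S100A11 bind annexins at membranes, S100A4 binds nonmuscle myosin, and S100A6 binds the adaptor CACYBP.

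The 9 members other than S100g lie on chromosome 3 in the deposited mm10 coordinates. Of these, 7 sit within a run of 185 kb from S100a1 (start 90511034) to S100a9 (end 90695721), and S100a11 and S100a10 lie together further along (93520496 to 93564645). S100g is alone on the X chromosome (162961992 to 162964599). Promoter windows, from 250 bases before to 50 bases after the annotated start, were read from RefSeq on GRCm38.p6, which has the same coordinates as mm10, and 8 of the 10 members matched. The windows of the 3 members with the largest log2 fold changes are shown on the coding strand of the gene. Capitals mark matches on either strand to any of the motifs searched. These were the TATA box core TATAAA, where general transcription factors assemble, and the AP-1 site TGANTCA, bound by FOS and JUN proteins. The others were the C/EBP pattern TTNNGNAA, the SMAD box CAGAC, and the palindromic oestrogen response element, which is GGTCA followed by any 3 bases and its reverse complement.
S100g, chrX:162964550-162964849, minus strand: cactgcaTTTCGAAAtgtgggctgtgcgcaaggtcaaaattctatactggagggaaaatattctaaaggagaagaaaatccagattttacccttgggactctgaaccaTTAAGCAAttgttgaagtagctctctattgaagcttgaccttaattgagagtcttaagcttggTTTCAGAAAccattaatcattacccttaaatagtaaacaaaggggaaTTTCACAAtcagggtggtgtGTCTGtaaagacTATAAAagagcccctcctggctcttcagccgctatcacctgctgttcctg
S100a8, chr3:90668821-90669120, plus strand: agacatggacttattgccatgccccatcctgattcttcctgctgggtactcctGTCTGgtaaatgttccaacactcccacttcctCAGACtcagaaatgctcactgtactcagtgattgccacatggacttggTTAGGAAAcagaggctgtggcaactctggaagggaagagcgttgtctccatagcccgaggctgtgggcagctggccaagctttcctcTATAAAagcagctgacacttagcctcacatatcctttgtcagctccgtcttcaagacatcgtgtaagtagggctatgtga
S100a9, chr3:90695672-90695971, minus strand: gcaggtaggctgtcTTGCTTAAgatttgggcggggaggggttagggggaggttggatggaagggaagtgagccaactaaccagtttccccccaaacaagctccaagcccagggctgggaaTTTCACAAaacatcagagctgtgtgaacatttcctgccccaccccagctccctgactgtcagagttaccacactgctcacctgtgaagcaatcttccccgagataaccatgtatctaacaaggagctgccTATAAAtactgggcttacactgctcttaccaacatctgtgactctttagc
Each of the 3 windows holds TATAAA, which 13.6% of the 32851 mouse promoter windows in the table hold. In S100a8 it begins at position -30 from the annotated start, whereas in S100g and S100a9 it begins at position 1, the first annotated base. TTNNGNAA, found in 40.7% of all windows, matched at 5 partly overlapping places in S100g, 2 in S100a9 and 1 in S100a8. CAGAC, found in 49.6% of all windows, matched 2 times in S100a8 and 1 time in S100g. Over the 8 members with a window, the SMAD box was present in 5, the TATA box in 4, the C/EBP pattern in 3, the AP-1 site in 2 and the oestrogen response element in 0, the last 2 against 7.81% and 0.07% of all windows. S100a16 had 2 windows and was counted where either matched, whereas the shares of all windows are per window. Its SMAD box and AP-1 matches were in only 1 of them. A match describes letters in the window only.

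Library depth, estimated from the deposited intervals, was 45.1 M to 56.6 M mapped fragments (M, 10 to the power of 6). Values below are FPKM (fragments per kilobase of transcript per 10 to the power of 6 mapped fragments) summed per gene and put on 1 scale between libraries, called scaled FPKM, so levels of different genes can be compared per length. Log2 fold changes compare cKO with control (positive where cKO is higher) on the log2(scaled FPKM + 1) scale, with the standard error of the limma fit. Smad2 was lower in cKO (3.58 ± 0.378, SD, n = 5, against 6.07 ± 0.342, SD, n = 3; limma with Benjamini-Hochberg adjustment, adjusted p = 0.0055), with all 5 cKO libraries lying below all controls. Smad3 was at 27.4, 31.5 and 25.6 in controls and at 42.6, 36.4, 29.6, 24.03 and 20.6 in cKO 1 to 5 (limma adjusted p = 0.837), so cKO 1 and cKO 2 lay above all controls. These are values of whole genes, in which fragments from exons outside the floxed segments also count, so for Smad3 the deletion was not checked. The summed level of 16 uterine epithelium markers was 5758 to 6238 in controls and 4836 to 7716 in cKO, against 125 to 299.98 and 61.4 to 280 for 12 stromal markers. In the titles, cKO 1 and cKO 2 carry numbers from a number series separate from that of the 6 remaining libraries, which include all controls. These 6 are called the main title series, and what the numbers stand for is not stated.

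Over all genes, 823 of 11315 tested were higher and 790 lower in cKO at an adjusted p below 0.05 in limma, 14.3% in all. All 10 S100 genes entered the test, and 1 of them, S100g, passed. S100g was also the only 1 of the 10 whose groups did not overlap, where 24.6% of all tested genes had groups that did not overlap. Since the members were chosen on this comparison, these counts are a description. The median log2 fold change of the members was 0.27, against -0.0050 over all tested genes. Together the 10 genes took 0.314% to 0.473% of all FPKM in controls and 0.475% to 1.10% in cKO.

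In controls the order of mean levels was S100a11 at 558 ± 106 scaled FPKM (SD, n = 3), S100a10 at 389 ± 104, S100a9 at 207 ± 55.8, S100a6 at 95.1 ± 45.0, S100g at 80.4 ± 27.9 and S100a8 at 65.0 ± 37.6. S100a16 followed at 49.0 ± 2.11, then S100a1 at 29.0 ± 4.07, S100a4 at 17.1 ± 9.77 and S100a14 at 11.4 ± 3.16. The control libraries of neighbours in this order overlapped except at 3 places, between S100a10 and S100a9, between S100a9 and S100a6, and between S100a16 and S100a1. In cKO S100g came first at 1132 ± 631 (SD, n = 5), then S100a9 at 841 ± 399, S100a11 at 717 ± 226, S100a8 at 397 ± 240, S100a10 at 332 ± 126 and S100a6 at 205 ± 159. At the low end were S100a16 at 41.9 ± 13.01, S100a1 at 33.9 ± 6.93, S100a14 at 11.8 ± 8.23 and S100a4 at 6.81 ± 4.44. Neighbours in the cKO order overlapped everywhere except between S100a1 and S100a14, where the lowest S100a1 value was 25.52 and the highest S100a14 value 25.49. Within cKO the libraries were uneven: cKO 4 had the lowest level of the 5 for 6 members, cKO 1 the highest for 6 and cKO 3 the highest for the other 4.

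**Figure D1:**
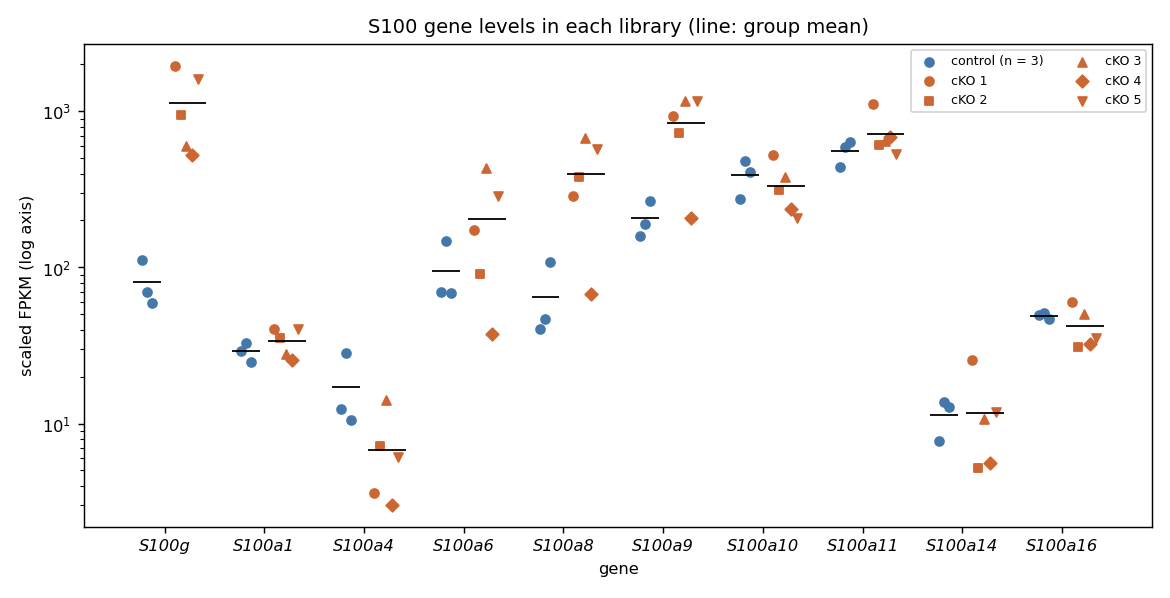
Scaled FPKM of the 10 S100 genes (log axis) in 3 control libraries (blue circles) and 5 Smad2/3 cKO libraries (orange, a symbol for each library), with a line at each group mean. Only S100g has all 5 cKO libraries above all 3 controls, and cKO 4 (diamonds) is the lowest cKO library for 6 of the genes.

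S100g, the cytosolic calcium buffer, rose in Smad2/3 cKO epithelium and became the most abundant of the 10 genes by mean level. In scaled FPKM the controls had 112, 69.6 and 59.6, and cKO 1 to 5 had 1957, 955, 599.7, 529 and 1618. Every cKO library was above every control, and cKO 1 and cKO 5 were the highest. The ratio of group means was 14.1, with a log2 fold change of 3.66 ± 0.45. When only cKO 3 to 5 were set against the controls the ratio of means was 11.4 and the log2 fold change 3.35, the lowest of the 20 alternative settings, which reached up to 3.92. The estimated number of fragments behind a value was 1121 to 33829. S100g made up 3.61% to 9.38% of the summed level of the 10 genes in controls and 14.9% to 38.2% in cKO.

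The S100g locus lies inside Ctps2, the CTP synthase gene, which runs on the opposite strand. In GENCODE M21 no Ctps2 exon overlaps S100g. Ctps2 itself was at 5.79 to 6.80 scaled FPKM in controls and 6.92 to 8.32 in cKO (limma adjusted p = 0.175), far below S100g in every library. Whether counting used strand is not stated, so fragments from either strand at S100g cannot be told apart.

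S100a8 and S100a9, the calprotectin subunits, were high in 4 of the 5 cKO libraries and at control level in the other, and neither passed the test. S100a8 stood at 40.1, 46.6 and 108 scaled FPKM in controls, and at 287, 381, 675, 67.9 and 575 in cKO 1 to 5. S100a9 was at 160.1, 191 and 269 in controls, and at 940.1, 723, 1174, 208 and 1158 in cKO. For both genes cKO 1, 2, 3 and 5 lay above all controls, while cKO 4 lay inside the control range. The log2 fold changes were 2.38 ± 0.70 for S100a8 and 1.83 ± 0.54 for S100a9. Without cKO 4, the library seen at control level, the log2 fold changes were 2.93 and 2.27 and past the threshold. Without any other single library neither gene was past it. With all 8 libraries kept, both genes were also past it with a filter at FPKM 5 and with array weights. Within the main title series the log2 fold changes were 2.32 and 1.70 and not past it.

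The subunits did not keep a fixed proportion. The ratio of S100a9 to S100a8 was 3.99, 4.10 and 2.48 in the controls, against 3.27, 1.90, 1.74, 3.06 and 2.01 in cKO 1 to 5. It was lowest in the 3 cKO libraries with the most S100a8 and above 3 in cKO 1 and cKO 4, so the groups overlapped. The tables list 2 S100a9 transcripts that share a start and are 524 and 521 bases long, and the longer held 81.1% to 83.7% of the S100a9 FPKM in every library.

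Both genes are also abundant in neutrophils, so neutrophil markers are given beside them. Over 17 neutrophil markers the controls summed to 26.4, 30.6 and 67.8 scaled FPKM, and cKO 1 to 5 to 77.4, 145, 219, 55.5 and 113. As for S100a8, cKO 3 was the highest and cKO 4 lay inside the control range. Unlike for S100a8, cKO 2 was above cKO 5. Of 10 tested markers, 2 were called higher and 0 lower (limma adjusted p below 0.05, where 7.27% of all tested genes were higher), with positive log2 fold changes for each of the 10. The resistin-like gene Retnlg was at 0.709, 0.752 and 1.57 in controls and at 10.2, 17.1, 76.5, 2.39 and 32.8 in cKO 1 to 5. It met the filter only through the cKO libraries, so its call is no separate result. It is also among the 17 markers summed, and gave 76.5 of the 219 in cKO 3. The decoy receptor gene Il1r2 went from 7.74 ± 4.76 to 17.9 ± 5.56 (limma adjusted p = 0.0432). None of the 17 was at 0 in every library, but Cxcr1 and the granule genes Ngp, Camp and Elane stayed below 1 in all 8. The part of neutrophils in the S100a8 and S100a9 levels was not tested. In bulk RNA, more cells of a type and more RNA per cell cannot be told apart.

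**Figure D2:**
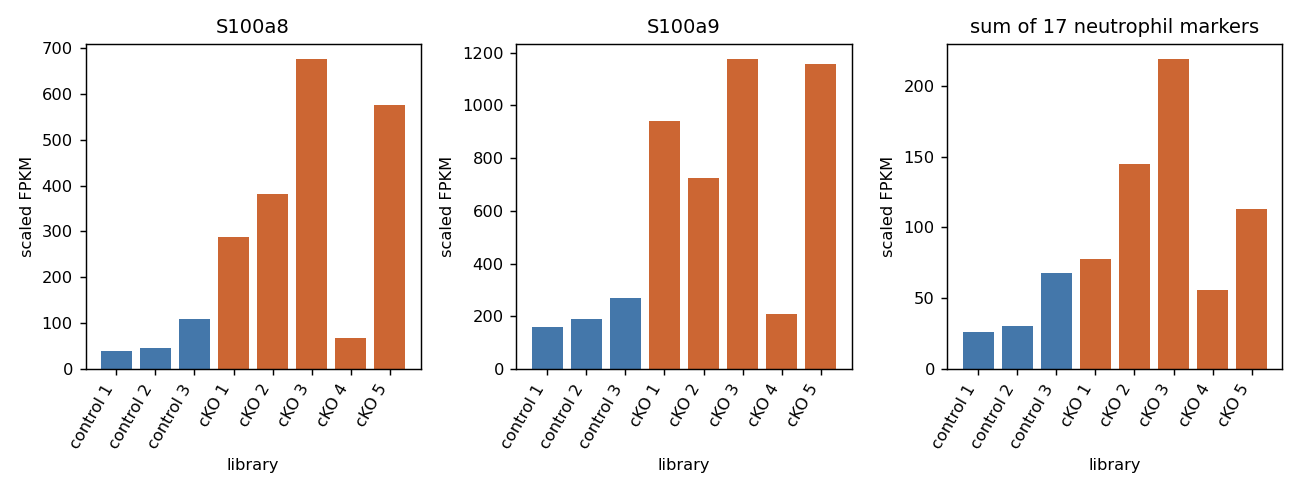
Scaled FPKM of S100a8 (left), S100a9 (middle) and the sum of 17 neutrophil markers (right) in each library, controls in blue and Smad2/3 cKO in orange. In all 3 panels cKO 4 falls inside the range of the controls and cKO 3 is the highest library, while the order of cKO 1, cKO 2 and cKO 5 differs between panels. The sum includes Retnlg, which met the filter only through the cKO libraries.

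S100a4, which binds nonmuscle myosin and is typical of fibroblasts and leukocytes, was low in both groups. It was at 12.4, 28.3 and 10.6 scaled FPKM in controls 1 to 3, and at 3.59, 7.20, 14.1, 3.01 and 6.13 in cKO 1 to 5. All cKO libraries except cKO 3 lay below the controls. The log2 fold change of -1.25 ± 0.46 did not pass, and without cKO 3 it was -1.53 and passed. The lowest values rest on about 55.1 fragments. The 12 stromal markers summed to 299.98, 199 and 125 in the control libraries, and to 69.5, 136, 280, 61.4 and 76.2 in those of cKO. Both S100a4 and these markers were highest in cKO 3 and lowest in cKO 4 among the cKO libraries. Among the controls, S100a4 was highest in control 2 and these markers in control 1. Of 9 tested stromal markers 0 were called in limma, against 14.3% of all tested genes (0 at an unadjusted p below 0.05), and all 9 had a negative log2 fold change. The 8 smooth muscle markers summed to 376, 63.3 and 104 in controls and to 113, 15.7, 120.7, 59.4 and 60.1 in cKO 1 to 5. Of 7 tested, 0 were called in limma (0 at an unadjusted p below 0.05) and 0 had a positive log2 fold change, with a median of -1.07. With a term for stromal and muscle level, the log2 fold change of S100a4 was -1.06. The part of stromal and muscle cells in the S100a4 level was not tested.

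S100a6, the partner of CACYBP, was the most uneven member, with an 11.6-fold range among the cKO libraries. It was at 69.1, 147 and 69.0 scaled FPKM in controls, and at 174, 91.1, 436, 37.7 and 285 in cKO 1 to 5. The values of cKO 1, 3 and 5 lay above all controls, that of cKO 4 below them and that of cKO 2 between them. The log2 fold change was 0.75 ± 0.72 and did not pass. It was 0.36 without cKO 3 and 1.24 without cKO 4.

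S100a10 and S100a11, the annexin-binding members, were the most abundant of the 10 genes in controls, and neither passed. S100a10 was at 276, 480.02 and 411 scaled FPKM in controls and at 524, 313, 377, 238 and 207 in cKO 1 to 5. The cKO values ran from below to above all controls, with a log2 fold change of -0.27 ± 0.31. S100a11 was at 438, 595 and 640.1 in controls and at 1108, 609, 649.8, 686 and 530.2 in cKO. The cKO libraries other than cKO 1 lay between 530.2 and 686 for S100a11, overlapping the controls, and its log2 fold change was 0.33 ± 0.25, or -0.019 with quantile normalization.

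S100a1, S100a14 and S100a16 had the smallest differences between group means, and their groups overlapped. S100a1, best known from heart muscle, was at 29.0, 33.0 and 24.9 scaled FPKM in controls and at 40.5, 35.3, 27.8, 25.5 and 40.2 in cKO 1 to 5, a log2 fold change of 0.20 ± 0.18. S100a16 was at 49.4, 50.8 and 46.7 in controls and at 60.4, 30.8, 50.7, 32.2 and 35.5 in cKO (-0.27 ± 0.22). Its controls lay within 1.09-fold of each other and its cKO libraries within 1.96-fold. S100a14, an epithelial member, was at 7.75, 13.7 and 12.7 in controls and at 25.5, 5.17, 10.7, 5.62 and 11.9 in cKO. Its log2 fold change was -0.13 ± 0.45 although the ratio of means was above 1 (11.8 against 11.4), the mean being carried by cKO 1, and its sign was positive without control 2, cKO 2 or cKO 4 (up to 0.079). A single S100a14 transcript held 81.8% to 100% of its FPKM in each library.

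Outside the 10, the rest of the family was low. Of 7 other listed S100 genes, 2 met the filter of scaled FPKM 1 in 3 libraries, and 0 were called in limma (1 at an unadjusted p below 0.05). S100a13 is a secreted member whose transcription start lies 105 bases from that of S100a1 on the opposite strand. It was at 6.12 ± 1.29 in controls and 10.2 ± 3.59 in cKO. Its log2 fold change was 0.62 ± 0.25 (limma adjusted p = 0.129). S100z was at 1.32 ± 0.163 and 0.923 ± 0.548 (limma adjusted p = 0.394). S100a3, S100a7a and S100b stayed below 1 in all 8 libraries, and S100a5 and S100a7l2 (listed as 9130204L05Rik) were at 0 in all. S100a2, outside the list and the rule for named genes, was at 0 to 0.334 and did not meet the filter. The fused-type genes Flg2, Hrnr, Rptn, Tchh, Tchhl1 and Crnn, large proteins of squamous epithelium that begin with an S100 domain, did not meet the filter.

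**Figure D3:**
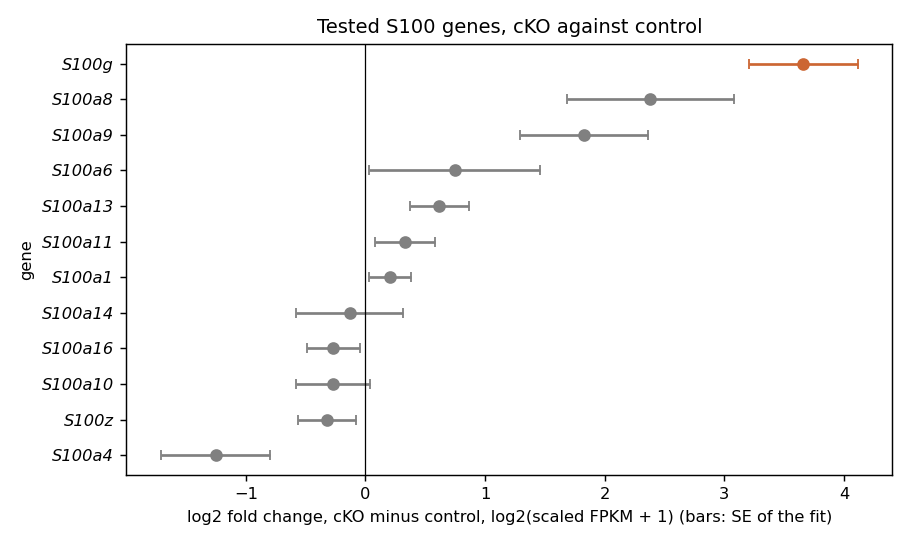
Log2 fold change (cKO minus control, on log2 of scaled FPKM + 1) of the 12 tested S100 genes, with bars for the standard error of the limma fit and orange for a gene past the adjusted threshold. S100g stands at 3.66 and is the only orange point, and S100a4 is the lowest at -1.25.

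The genes around the chromosome 3 members, within 1 Mb of their span, were used to look at position. Of 109 such genes, among them S100a7l2 and 6 fused-type genes that did not meet the filter, 42 were tested, 4 were higher and 4 lower in cKO, or 19.0% against 14.3% of all tested genes, with a median log2 fold change of 0.024. Them5, a mitochondrial thioesterase gene, rose from 11.5 ± 6.61 to 89.6 ± 37.0 scaled FPKM (log2 fold change 2.92 ± 0.45, limma adjusted p = 0.0051). Pglyrp3, a peptidoglycan recognition gene, was at 0.039 to 0.28 in controls and 0.985 to 2.72 in cKO. It met the filter only through the cKO libraries, so its call is no separate result, and it was not called without control 2 or with the term for stromal and muscle level. Snapin, a vesicle-trafficking gene, has its lowest coordinate 23.0 kb below that of S100a1. Its level fell from 14.7 ± 1.77 to 9.56 ± 0.654 (limma adjusted p = 0.0089). Of the abundant cornified envelope genes between the S100 runs, Sprr2b rose from 1514 ± 982 to 5037 ± 1507 (limma adjusted p = 0.0234), and Sprr2f was at 8510 ± 3528 and 10036 ± 3335 (limma adjusted p = 0.738). The other called genes, outside the rule for named genes, were Sprr2a1, Sprr2a2 and Sprr2a3, which were lower, and Sprr2g, which was higher. The Sprr2 genes are near-identical in parts, so their split of fragments is uncertain. Calls around the S100 genes therefore went in both directions. Snapin was not called without control 2 or control 3 (its log2 fold change ranged from -0.66 to -0.49 as libraries were left out), and Sprr2b was not called without either of these controls (1.40 to 2.40) nor within the main title series.

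**Figure D4:**
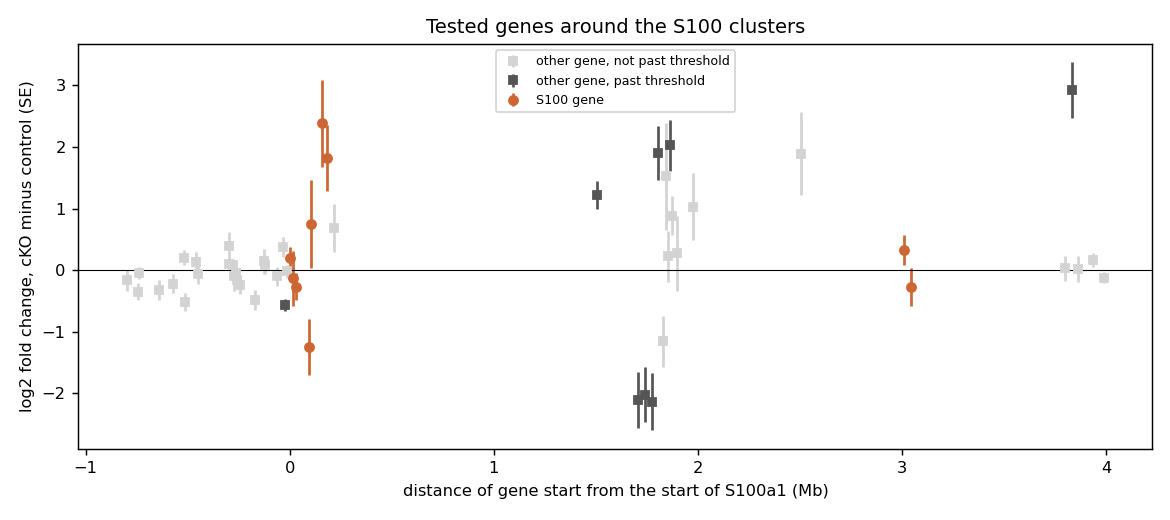
Log2 fold change (cKO minus control, bars for SE) of tested genes along chromosome 3. The horizontal axis is the distance of gene start (lowest coordinate) from that of S100a1, in Mb. S100 genes are in orange and other genes in dark grey where past the threshold. S100a8 and S100a9 lie next to each other at 2.38 and 1.83, with S100a4 at -1.25 in the same run, and the dark points between the S100 runs are found on both sides of 0.

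Among genes of calcium entry, extrusion, storage and buffering, 5 of 22 tested were higher and 0 lower in cKO, where 7.27% of all tested genes were higher and 6.98% lower. Their median log2 fold change was 0.21. This list, like those of binding partners, receptors, regulators and cell type markers, was chosen with earlier results of these data known. The counts for these lists are a description. Atp2c2, a pump that loads calcium into the secretory pathway, rose from 41.2 ± 22.1 to 104 ± 15.1 scaled FPKM (log2 fold change 1.41 ± 0.28, limma adjusted p = 0.0134). Atp2a3, an endoplasmic reticulum calcium pump gene, rose from 1.801 ± 0.845 to 5.61 ± 1.47 (1.25 ± 0.23, limma adjusted p = 0.0097). Orai2, a store-operated channel gene, rose from 5.98 ± 1.15 to 9.69 ± 0.89 (0.62 ± 0.12, limma adjusted p = 0.0127). The other 2 called, Atp2b2, a plasma membrane pump gene (1.12 ± 0.24), and Itpr2, a calcium release channel gene (0.47 ± 0.12), were named after their values were seen. Groups did not overlap for 8 of the 22 tested, beside 24.6% of all tested genes, in either direction. The 5 called genes were among them, with every cKO library above every control, which a call on the same values makes likely. Trpv6, the epithelial calcium entry channel that works with S100G in intestine, was abundant and did not pass, at 331 ± 64.7 against 392 ± 86.0 (limma adjusted p = 0.47). Calb1, the larger calbindin, was at 164 ± 125 in controls and 287 ± 179 in cKO (limma adjusted p = 0.322). The count of 5 fell to 1 without control 2 or without control 3. Without control 2 Atp2c2, Atp2a3 and Orai2 were not called, and without control 3 Atp2c2 and Atp2a3 were not, with log2 fold changes as libraries were left out of 1.18 to 1.81, 1.10 to 1.49 and 0.56 to 0.76. Atp2c2 was also not called within the main title series, and Orai2 not with TPM or the term for stromal and muscle level.

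Of the binding partners of S100 proteins (annexins, AHNAK, nonmuscle myosins, CACYBP and the plasminogen activator system), 4 of 20 tested were higher and 0 lower, against 7.27% and 6.98% of all tested genes, with a median log2 fold change of 0.019. This list too was chosen with earlier results known, so the count is a description. Anxa1, an anti-inflammatory annexin and partner of S100A11, rose from 346 ± 49.7 to 645 ± 191 scaled FPKM (0.86 ± 0.23, limma adjusted p = 0.0416). Myh9, the nonmuscle myosin heavy chain that S100A4 binds, rose from 57.5 ± 3.24 to 78.4 ± 9.62 (limma adjusted p = 0.0363), and Anxa7 from 57.5 ± 3.51 to 92.9 ± 21.3 (limma adjusted p = 0.0462). The remaining one, Myh10 (0.40 ± 0.12, limma adjusted p = 0.0498), was named after its values were seen. Anxa2, which forms a tetramer with S100A10 that holds plasminogen at the cell surface, did not pass, at 914 ± 160.5 against 918 ± 318 (limma adjusted p = 0.926). The ratio of Anxa2 to S100a10 was 2.97, 2.29 and 2.00 in controls and 2.62 to 3.13 in cKO, so the groups overlapped. The count of 4 fell to 0 without control 1, control 2, control 3 or cKO 2, and to 1 without cKO 4, without cKO 5 or within the main title series. The log2 fold change of Anxa1 ranged from 0.71 to 0.96, that of Anxa7 from 0.55 to 0.77 and that of Myh9 from 0.36 to 0.48 as single libraries were left out.

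Of the receptors for secreted S100 proteins and their adaptors, 1 of 12 tested was higher and 1 lower, or 16.7% called against 14.3% of all tested genes, a share near the background. Tlr4, the lipopolysaccharide receptor that also binds S100A8, rose from 7.61 ± 1.52 to 12.9 ± 1.88 scaled FPKM (0.70 ± 0.14, limma adjusted p = 0.0158). Irak4, a kinase below TLR4, fell from 11.2 ± 1.68 to 6.18 ± 1.65 (-0.79 ± 0.19, limma adjusted p = 0.0261). Groups did not overlap for 3 of the 12 tested, Tlr4 and Irak4 among them, a share near the 24.6% of all tested genes. The abundant members did not pass, with Bsg, an S100A9 receptor, at 571 ± 42.7 against 574 ± 92.7 (limma adjusted p = 0.987) and Cd14 at 335 ± 107 against 465 ± 118 (limma adjusted p = 0.238). Ager, which encodes the receptor RAGE, stayed at or below 0.679 in every library and was not tested. Tlr4 was not called without control 2 or control 3 (0.61 to 0.84 as libraries were left out). Irak4 was not called without any 1 control or cKO 1 (-0.88 to -0.68), nor within the main title series.

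Of 8 genes for hormone and vitamin D regulators of S100g, 5 were tested and 0 were called in limma, against 14.3% of all tested genes (1 at an unadjusted p below 0.05). Esr1, the oestrogen receptor, was at 30.7 ± 3.87 in controls and 38.2 ± 6.28 scaled FPKM in cKO (limma adjusted p = 0.183). Rxra, the partner of the vitamin D receptor, was at 18.9 ± 1.86 and 13.7 ± 3.31 (limma adjusted p = 0.123). Vdr itself stayed below 1 in every library. The list includes the progesterone receptor gene Pgr, whose locus carries the cre allele in cKO, and no alleles are listed for controls. An effect of the cre allele on S100g cannot be told apart from that of the Smad2 and Smad3 deletions.

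**Figure D5:**
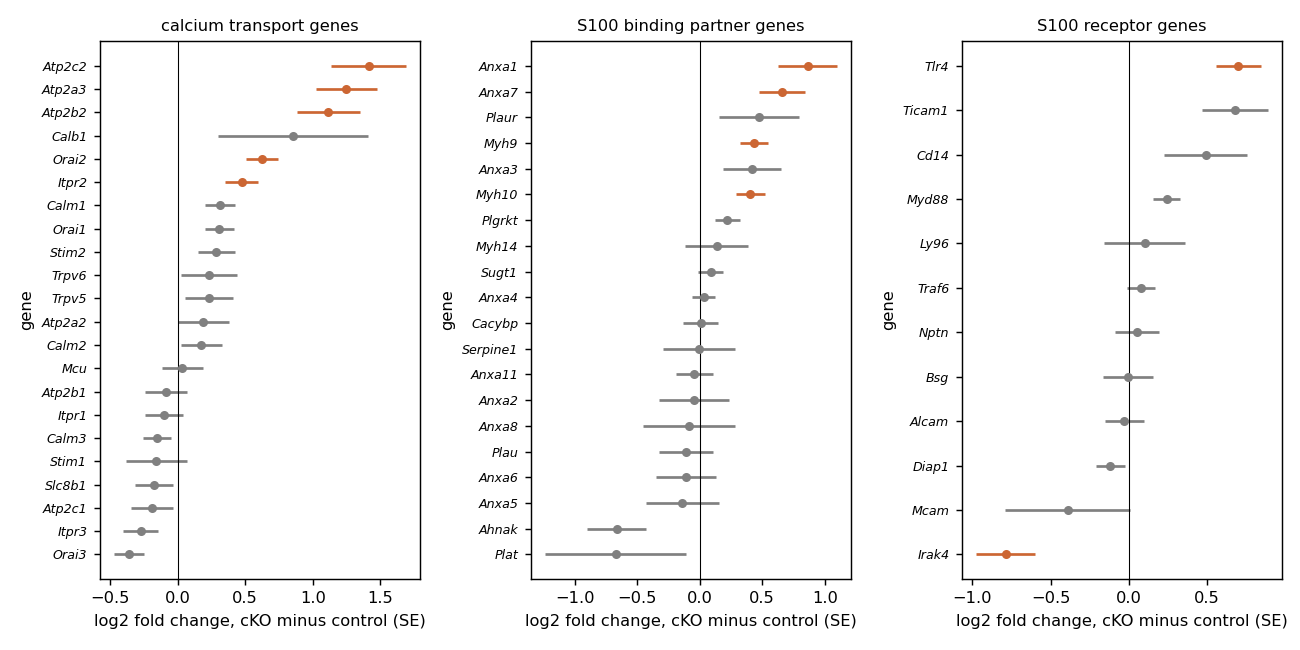
Log2 fold change (cKO minus control, bars for SE) of the tested calcium transport genes (left), S100 binding partner genes (middle) and S100 receptor genes (right), with orange for genes past the adjusted threshold (Diap1 is the symbol of Diaph1 in the tables). In the left and middle panels all called genes, 5 and 4, are on the positive side, and in the right panel Tlr4 and Irak4 are on opposite sides.

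The genes whose pattern between libraries was most like that of S100g and S100a8 were ranked by Pearson's r over the 8 libraries after each group's mean log2 level was subtracted, among 7724 other tested genes with a mean scaled FPKM of at least 5. For S100g the highest were Ubap1 (r = 0.988), Fbxl5 (0.983), Stx8 (0.977), Sdcbp2 (0.965) and Tmem159 (0.960). S100a1 was the member most like S100g, at r = 0.864 and rank 165. For S100a8 they were Mogat2 (0.971), Homer3 (0.970), Lypla2 (0.963), S100a9 (0.956) and B4galnt1 (0.956), and S100a6 came next among members at r = 0.758 and rank 263. The r between S100g and S100a8 was 0.216. All values come from the same 8 libraries and share their scaling, and they are given as a description. Picking the top of 7724 genes over 8 libraries yields high r even among unrelated genes. The r also ignores the size of a difference: Ubap1 ran from 21.7 to 29.4 scaled FPKM, and S100g from 59.6 to 1957.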

How the data were processed

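RNA-seq of 8 libraries was used, cDNA being primed with random and oligo-dT primers, per the labels' protocols. The authors deposited FPKM with a confidence interval per RefSeq transcript (34535), made with bcl2fastq 1.8.3, TopHat and Cufflinks on mm10, per the submitters' processing notes. Other versions, and whether counting used strand, were not given in the sources used here. Deposited coverage signal, per the file headers, was used only to compare depth. Groups come from the genotype labels, and replicate numbers only name libraries.

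FPKM was summed per symbol, scaled by median ratios (factors 0.924 to 1.06), and filtered at 1 in at least 3 libraries. A total of 15 genes with a status other than OK were left out, none of them an S100 gene. With limma 3.58.1 (R 4.3.3), log2(scaled FPKM + 1) was fitted with trended variances and tested on 2 sides, with Benjamini-Hochberg adjustment over 11315 genes, and the fit was tested on simulated data. Fragments were estimated from the widths of the deposited intervals, read as 95% intervals (the Cufflinks convention), and cover counting and assignment error only.

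The members and gene lists were chosen with earlier results of these data known. Named genes are all listed S100 genes, and of each other list the 3 called genes of lowest adjusted p and the 2 most abundant tested genes. The 20 alternatives changed scaling, pseudocount, filter, status rule, variance model, libraries or covariates. Of 194 listed symbols, 3 did not match the tables (Flg, Ahnak2 and Ly6g), and 2 matched under an older symbol.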

Additional observations from a re-analysis of the deposited data

Results flagged for a closer look

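S100a11 in cKO 1 stood apart from the other cKO libraries. It was at 1108 scaled FPKM, where the other 4 lay between 530.2 and 686, and the gap to the nearest was 0.73 of the range of the group, above the Dixon value of 0.71 for 5 samples. The estimated fragments behind the value of S100a11 were 20476 in that library, the most of any. This was 1 of 35 genes examined in this way, and chance flags about 1 in 20.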

How the results depend on the processing

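The log2 fold change of S100g was 3.35 to 3.92 in the 20 alternatives, which rerun the comparison on which it was chosen. All 200 values of the 10 S100 genes under these alternatives lay within 1 SD of the reported value. That SD is the spread of log2 levels between libraries within groups, a wide bound, in which S100a6 still ran from 0.36 to 1.28. Settings that changed only the filter, status rule or variance trend cannot change a log2 fold change. Most libraries are also shared between settings, so this is no test of robustness. The count of S100 genes called, 1 as reported, was 3 with a filter at FPKM 5, 4 with array weights, and 1 to 3 as single libraries were left out. The cause of these changes was not tested.

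Over all genes, 823 higher and 790 lower became 510 and 1662 with TPM, where the median log2 fold change shifted to -0.20, 23.5% of calls were higher in place of 51.0%, and S100g was at 3.46. They became 1793 and 1733 with array weights, 361 and 303 with a term for stromal and muscle level, and 238 to 935 and 176 to 892 as single libraries were left out.

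Calcium transport genes called (5) were 8 with array weights, 2 with the stromal and muscle term and 1 to 5 as libraries were left out. Binding partner genes called (4) were 2 without scaling, with TPM, with quantile normalization and with the title series as a term, 1 without a filter, without the other title series and with the stromal and muscle term, and 0 to 4 as libraries were left out. Receptor genes called (2) were 4 with array weights, 1 without a filter, without the other title series, with the title series term and with the stromal and muscle term, and 0 to 3 as libraries were left out. Regulator genes called (0) were 1 with TPM and 2 with array weights, and other S100 genes called (0) were 1 with array weights. Neighbours called (8) were 14 with array weights, 3 without the other title series, 5 with the title series term, 4 with the stromal and muscle term, and 1 to 10 as libraries were left out.

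Signs changed in 6 named genes that were not called. S100a11 was at -0.019 with quantile normalization, and S100a14 at -0.45 to 0.079 as libraries were left out. Anxa2 was at 0.021 with the stromal and muscle term and at -0.22 to 0.094 as libraries were left out. Bsg was at 0.056 with array weights and at -0.072 to 0.065 as libraries were left out. Sprr2f was at -0.045 with quantile normalization and at -0.0076 without the other title series and with it as a term. Trpv6 was at -0.014 with quantile normalization. Of the other tested named genes, 62 values lost and 3 gained their call. No paired analysis was possible because the labels give nothing that links a control library with a cKO library. The S100 genes below the filter were compared only in the alternative without a filter, where 0 of the other listed S100 genes were called in limma.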

Other observations

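Squamous epithelium markers, which accompany S100A8 and S100A9 in stressed or cornifying epithelia, had a summed level of 16.9 to 29.3 scaled FPKM in controls and 28.1 to 91.4 in cKO over 11 genes, and Krt1, Krt4, Krt5, Trp63 and Ivl stayed below 1 in all 8 libraries. Krt13, a keratin of noncornified squamous epithelium, was at 0.231 to 0.532 in controls, at 0.9996 in cKO 2 and at 3.44 to 7.78 in the other 4 cKO libraries, and it met the filter only through the cKO libraries. Krt6a, a stress keratin, was at 74.7 in cKO 1 and at 8.11 to 19.6 in the other cKO libraries, against 10.4 to 21.2 in controls. Macrophage markers summed to 100.4 to 148 in controls and 68.2 to 125 in cKO, and lymphocyte markers to at most 5.15.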
